A study of Bos indicus with 12 samples.

Results

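Mitochondrial ribosomal protein genes are nuclear genes whose products are made in the cytosol, imported into mitochondria and built into the mitochondrial ribosome. They were chosen by symbol, as every gene whose name begins with MRPL (large subunit) or MRPS (small subunit) followed by a number. The count table held 70 such genes, 46 MRPL and 24 MRPS, among 26229 gene identifiers. The RefSeq gene table of Bos indicus lists 77 symbols that match, and the 7 others (MRPL18, MRPL36, MRPL40, MRPS6, MRPS7, MRPS22 and MRPS24) were not analysed here.

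The mitochondrial ribosome translates the few messages encoded in mitochondrial DNA, which specify core subunits of the respiratory chain and of ATP synthase. Many of its proteins have a counterpart in the bacterial ribosome, and others were added during the evolution of mitochondria. The placement and roles given below are known from human and other mammalian mitochondrial ribosomes. In those structures MRPS18A and MRPS30 sit in the large subunit in spite of their names, so 48 of the 70 genes encode large and 22 small subunit proteins.

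RNA of blood was sequenced from 12 cows (Bos indicus) in lactation 2 or 3, of the breeds Gir and Shweta Kapila. Each breed gave 3 high-yielding and 3 low-yielding cows, classed within the breed by lactation record, so the groups are high-yielding Gir, low-yielding Gir, high-yielding Shweta Kapila and low-yielding Shweta Kapila. All cows are female. No treatment is named. Ages and milk yields were not used here. Libraries are named by breed, yield class and cow, as in "Gir high 1". Each library is a separate cow, and total counts ran from 14.2 M to 27.2 M.

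The labels give peripheral blood mononuclear cells as the cell type, while the extraction kit named is one for whole blood. Markers of T cells (10 of 10 listed genes in the table), B cells (8 of 10), monocytes (6 of 10), neutrophils (5 of 10) and platelets (7 of 10) all had counts. So did markers of erythroid cells (7 of 11) and of NK and cytotoxic cells (6 of 10). In CPM (the count divided by the library's total in M, after scaling for composition), summed neutrophil markers ran from 651 to 2129 CPM and platelet markers from 546 to 3955 CPM over the 12 libraries. A lower level in such mixed blood can come from fewer cells of a type or from less RNA per cell, and these cannot be told apart here.

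All 70 genes passed the filter on low counts. Their mean level over the 12 libraries ran from 1.24 CPM for MRPL23 to 86.0 CPM for MRPS15, with a median of 16.8 CPM. The smallest value was an expected count of 10.5, for MRPL23. CPM is not corrected for transcript length, so these values do not rank the genes by abundance. Their joint share of a library's counts ran from 0.122% to 0.193%.

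The summed level of the 70 genes was close to constant in Gir and spread widely in Shweta Kapila. High-yielding Gir cows stood at 1571, 1585 and 1495 CPM and low-yielding Gir cows at 1580.1, 1479.9 and 1465 CPM, in the order of their numbers. High-yielding Shweta Kapila cows stood at 2090.2, 1642 and 1261 CPM and low-yielding ones at 1399, 1337 and 1747 CPM. The lowest and the highest of the 12 were thus both high-yielding Shweta Kapila cows, and the yield classes overlapped in either breed. Group means were 1550.5 ± 48.6 and 1508 ± 62.6 CPM in high- and low-yielding Gir, and 1665 ± 415 and 1494 ± 221 CPM in high- and low-yielding Shweta Kapila (mean ± SD, n = 3 each).

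Library properties differed between the same Shweta Kapila cows. The 3 Shweta Kapila libraries with the lowest summed levels, high 3, low 1 and low 2, were the only ones of over 22 M counts. They also held the largest shares of counts on 37 identifiers of 7 or 8 digits that carry no name here, at 9.00%, 13.1% and 11.7%. Shweta Kapila high 1, high 2 and low 3, with the highest summed levels, held the smallest shares, at 4.54%, 4.72% and 5.57%. In Gir these shares ran from 6.2% to 8.70%. The part of these properties in the family's level was not tested.

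**Figure D1:**
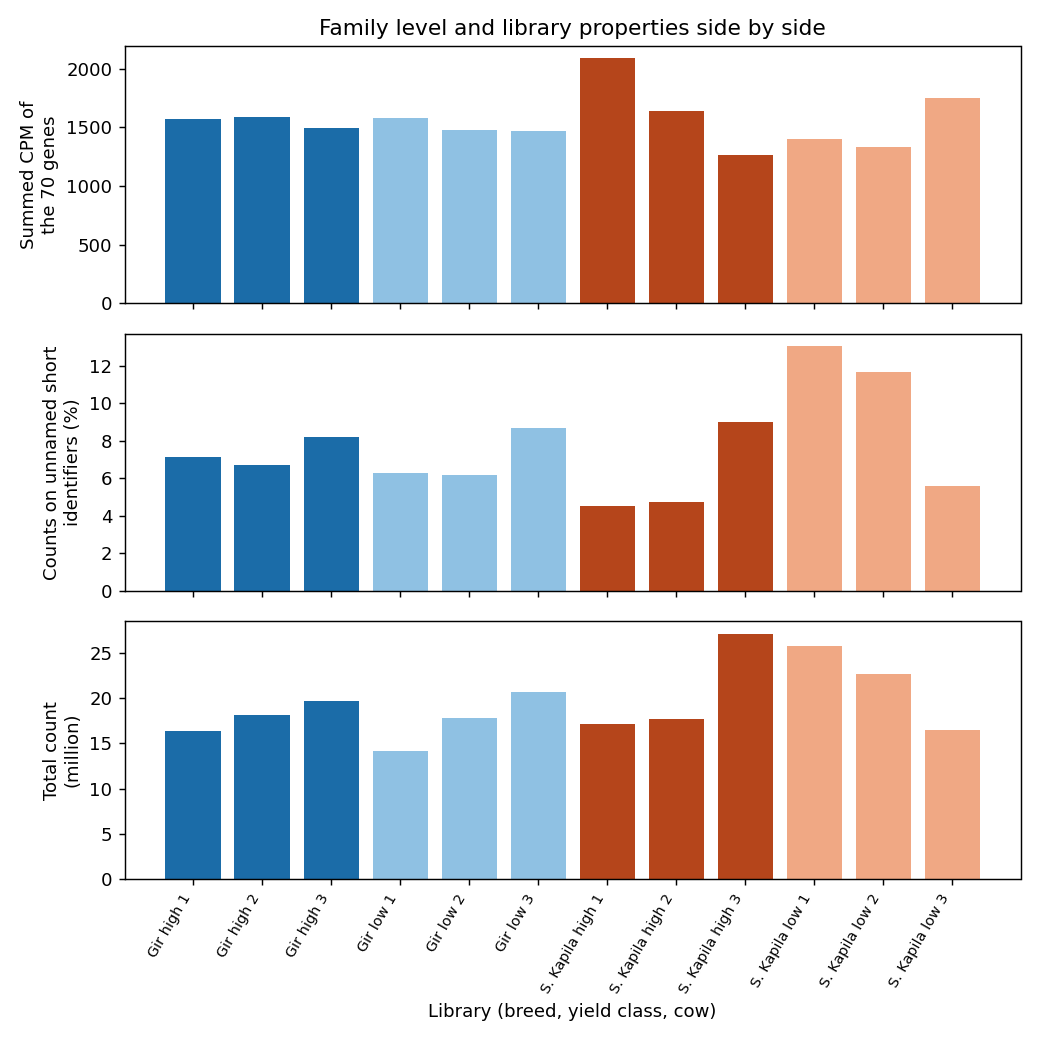
Summed level of the 70 genes in CPM (top), percent of counts on unnamed identifiers (middle) and total count in M (bottom) for each of the 12 libraries, coloured by group. The 6 Gir bars of the top panel lie between 1465 and 1585 CPM, and the 6 Shweta Kapila bars between 1261 and 2090.2 CPM.

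Gene by gene, Shweta Kapila high 1 was the highest of the 12 libraries for 36 of the 70 genes (51.4%), a place it held for 19.6% of all 15420 tested genes. Shweta Kapila low 1 was the lowest for 26 (37.1%), against 24.4% of all tested genes. Gir high 3 was the lowest for 14 (20.0%), against 7.55%. In 43 of 70 genes (61.4%) high 3 was the lowest of the 3 high-yielding and low 3 the highest of the 3 low-yielding Shweta Kapila cows, an order found in 28.9% of all tested genes.

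The spread was larger in Shweta Kapila than in Gir for 56 of the 70 genes (80.0%), much as for all tested genes (81.7%). The median SD of log2 CPM over 6 cows was 0.23 in Gir and 0.46 in Shweta Kapila for this family, against 0.30 and 0.56 for all tested genes. Between the highest and lowest cow of a breed the median difference was 1.52-fold in Gir and 2.29-fold in Shweta Kapila.

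**Figure D2:**
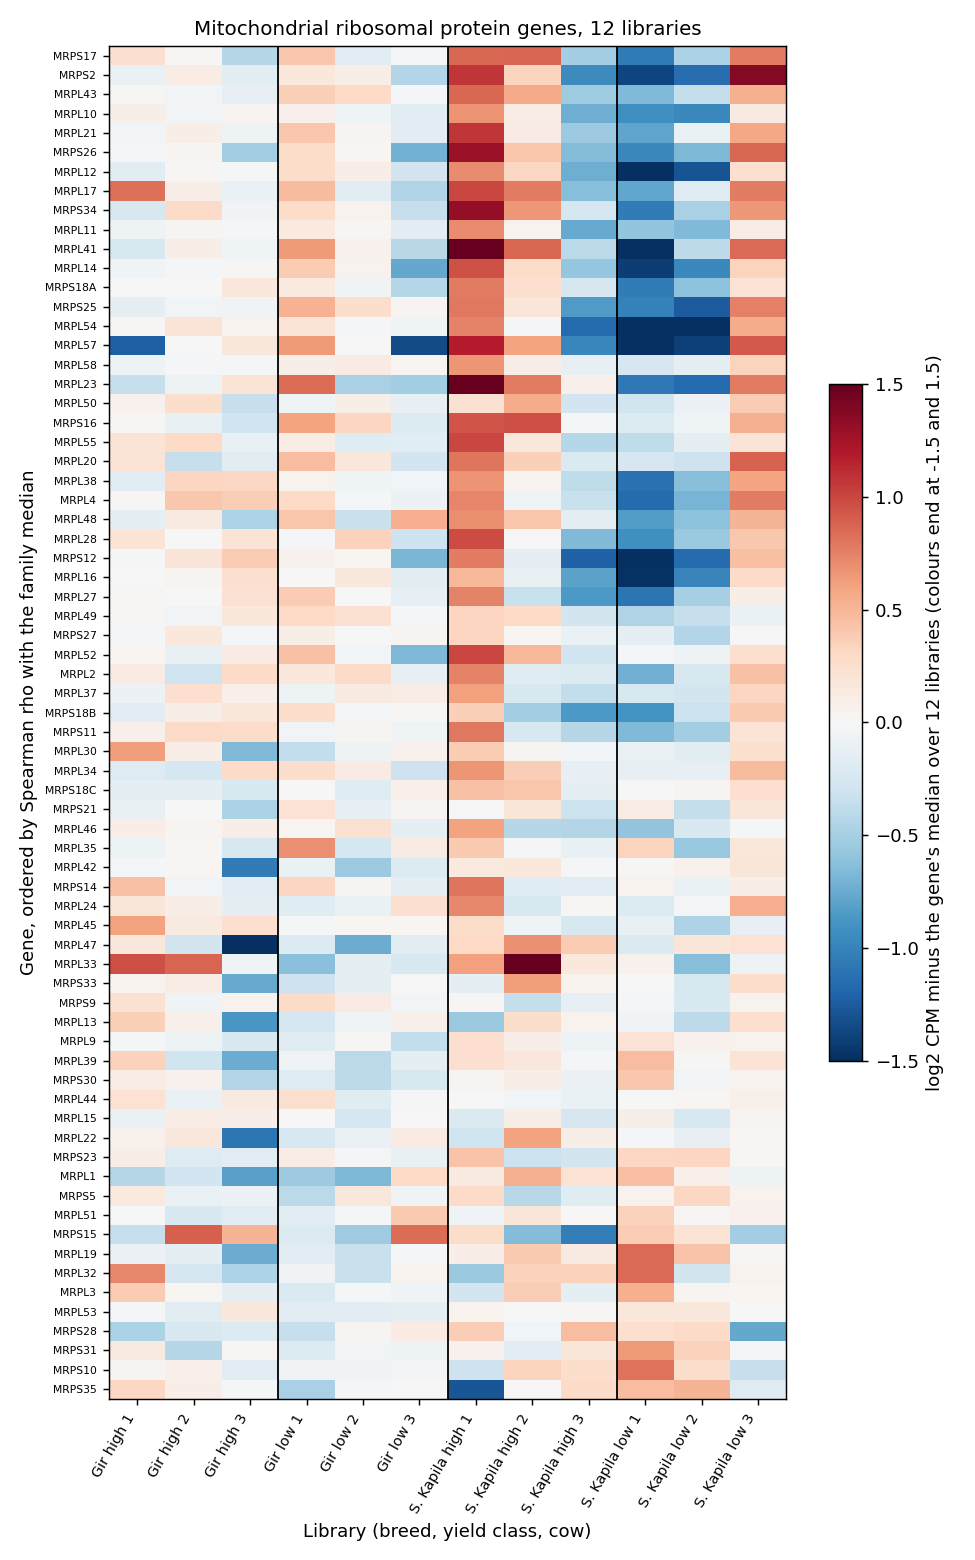
Level of each of the 70 genes (rows) in each library (columns), as log2 CPM minus the gene's own median, with genes ordered by their Spearman correlation with the family's median profile. The upper rows are high in Shweta Kapila high 1 and low 3 and low in high 3, low 1 and low 2. The middle and lower rows follow this pattern less, some of them flat and some not, and the lowest rows run the other way.

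The genes ranged from close to the family's median profile to opposite to it. Over the 12 libraries 40 genes had a Spearman correlation above 0.5 with that profile, and 12 had one below 0. Genes of low correlation were not all flat. MRPL47 (rho = 0.37) and MRPS15 (rho = −0.21) had SDs of 0.63 and 0.62 of log2 CPM, and MRPL44 (rho = 0.12) had one of 0.13. Libraries share cow, depth and composition and the profile is made from the same genes, so this is a description only. MRPS2, the counterpart of bacterial S2, and MRPS17, that of S17, followed the profile most closely (rho = 0.97 each), and MRPS35 stood furthest from it (rho = −0.70).

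The 5 genes of largest spread over the 12 libraries were MRPL57, MRPL41, MRPS12, MRPL54 and MRPS2, with SDs between 0.82 and 0.99 of log2 CPM. MRPL54 (identifier 109561761), a protein of the large subunit with no bacterial counterpart, showed the contrast of the breeds most plainly. Its level was 26.0, 29.3 and 26.7 CPM with high and 29.6, 25.1 and 24.6 CPM with low yield in Gir cows. In Shweta Kapila it was 42.9, 25.4 and 11.4 CPM with high and 6.49, 7.68 and 37.8 CPM with low yield. The Gir cows differed by at most 1.2-fold, and the Shweta Kapila cows by up to 6.61-fold with high- and low-yielding cows at either end.

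MRPS12 (identifier 109572578), the counterpart of bacterial S12 at the decoding centre of the small subunit, varied alike. Shweta Kapila cows stood at 21.5, 11.5 and 5.45 CPM with high and 2.53, 5.66 and 17.2 CPM with low yield. Gir cows stood at 12.3, 14.5 and 16.4 CPM with high and 13.2, 12.9 and 7.83 CPM with low yield. Its levels overlapped between the yield classes in both breeds.

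MRPL41 (identifier 109566643), a large subunit protein added in mitochondria, had the widest range, 11.1-fold among Shweta Kapila cows, from 4.67 CPM in low 1 to 51.9 CPM in high 1. The other Shweta Kapila cows stood at 24.2 (high 2), 10.1 (high 3), 10.2 (low 2) and 24.1 CPM (low 3). In Gir its level ran from 10.0 to 20.8 CPM. MRPS2 (identifier 109566635) was at 36.1, 21.5 and 8.85 CPM with high and 6.58, 7.77 and 44.2 CPM with low yield in Shweta Kapila cows. MRPL57 (identifier 109566852), another large subunit addition, was low in all libraries, between 0.934 and 7.66 CPM. In these genes too the same 3 Shweta Kapila cows, high 1, high 2 and low 3, stood above the other 3.

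The 5 genes of smallest spread were MRPL44, MRPL53, MRPL15, MRPL9 and MRPS27, with SDs between 0.13 and 0.18. MRPL44 (identifier 109571316), which carries a fold related to ribonuclease III, was at 19.6, 19.3 and 18.5 CPM with high and 19.9, 20.2 and 20.8 CPM with low yield in Shweta Kapila cows. MRPL53 (identifier 109565908) was at 71.5, 68.3 and 69.3 CPM and at 77.2, 76.8 and 69.1 CPM in the same cows. MRPS27, a pentatricopeptide repeat protein of the small subunit, ran from 28.2 to 47.9 CPM over all 12 libraries, MRPL15 from 22.9 to 29.7 CPM and MRPL9 from 62.7 to 96.3 CPM. Over all 12 cows the level of MRPL53 differed by at most 1.26-fold and that of MRPS27 by 1.7-fold, against 11.1-fold for MRPL41 of the same particle.

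MRPS35, MRPS10 and MRPS31, all of the small subunit, ran against the family's profile. MRPS35 (identifier 109559566) was lowest where the family was highest, at 6.52 CPM in Shweta Kapila high 1, and stood at 15.8 and 19.4 CPM in high 2 and high 3. Low-yielding Shweta Kapila cows had 21.7, 22.4 and 13.9 CPM. Its Gir levels lay between 11.3 and 19.6 CPM. MRPS10, the counterpart of bacterial S10, was at 111 CPM in Shweta Kapila low 1, its highest value, and at 49.8 CPM in low 3, its lowest.

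**Figure D3:**
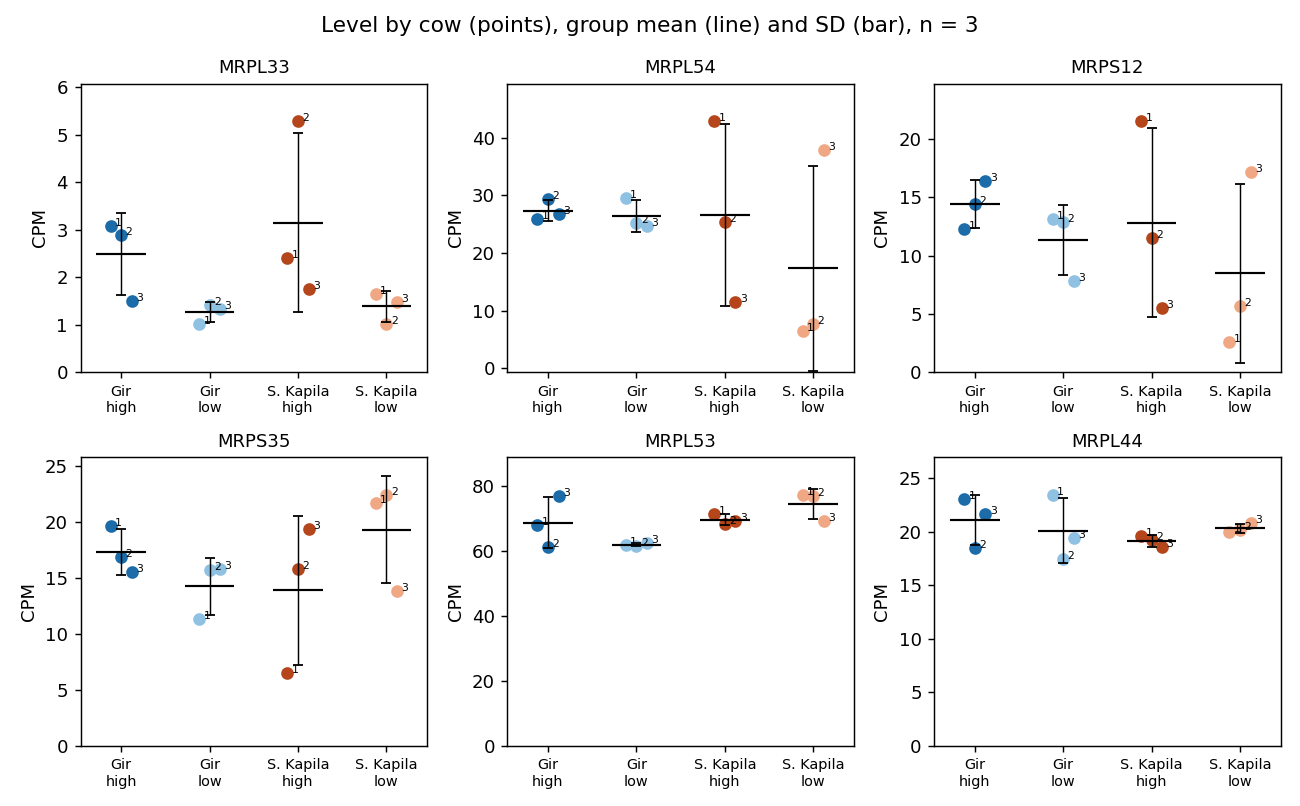
Level in CPM of MRPL33, MRPL54, MRPS12, MRPS35, MRPL53 and MRPL44 in each cow (numbered points) by group, with the group mean (line) and SD (bar, n = 3). MRPL54 and MRPS12 spread widely in Shweta Kapila, MRPL53 and MRPL44 stay flat, and MRPL33 is higher in all high-yielding than in all low-yielding cows of its breed.

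The comparison of high with low yield in Gir asked whether these transcripts differ with milk production within that breed. As a family they had a median log2 fold change (high over low) of 0.01, 38 genes above and 32 below 0. Over all tested genes the median was −0.02. The share above 0 was 47.4% over all tested genes. With edgeR's quasi-likelihood test no gene of the family was called at a false discovery rate of 0.05 (0 of 70), and none was called among all tested genes (0.0%). None of the 70 had an unadjusted p under 0.05, against 1.89% of all tested genes (1.17% on the higher and 0.713% on the lower side). That count was 1 without Gir high 3 (1.49% of all tested genes), without Shweta Kapila high 2 (2.05%) or without Shweta Kapila high 3 (2.21%). With the log2 total count as a covariate it was 1 as well (3.15%). DESeq2 and limma-voom also called none of the 70, and each called 0.00649% of all tested genes. The middle 50% of the family lay between −0.12 and 0.10, and the median SE of a gene was 0.34. Differences of the size of that SE were not detectable with 3 cows a group. Larger ones, such as 0.97 ± 0.47 SE for MRPL33, were not called either. Summed neutrophil markers did not overlap between the Gir classes, at 1636 to 2091 CPM with high and 1098 to 1391 CPM with low yield. Platelet markers did not overlap either, at 1373 to 3955 CPM and 967 to 1303 CPM. Their part in the Gir values was not tested.

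High- and low-yielding Gir cows did not overlap for 5 of the 70 genes, against 10.2% of all tested genes. MRPL33, MRPL45 and MRPS11 were on the higher side (5.12% of all tested genes), and MRPL58 and MRPS25 on the lower (5.06%). MRPL45 (identifier 109574220), which lies at the exit of the nascent protein tunnel and helps to hold the ribosome at the inner membrane, was at 45.9, 32.9 and 35.7 CPM with high and 29.5, 30.7 and 30.8 CPM with low yield (log2 fold change 0.33 ± 0.23 SE, adjusted p = 1). MRPL58, a peptidyl-tRNA hydrolase that frees stalled ribosomes, was at 21.7, 22.4 and 22.5 CPM against 24.2, 24.8 and 23.3 CPM (−0.12 ± 0.25). The difference of MRPL58 was smaller than its SE although the cows separated. That SE rests on a spread shared by all groups, not on the Gir cows alone. The SD of log2 CPM of MRPL58 was 0.07 over the Gir and 0.35 over the Shweta Kapila cows.

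Among the genes of lowest p in Gir, MRPL33 (0.97 ± 0.47 SE) and MRPL53 (0.15 ± 0.18) stood beside MRPL45 on the higher side. On the lower side were MRPS16, the counterpart of bacterial S16 (−0.40 ± 0.34), MRPL51 (−0.22 ± 0.22) and MRPL35 (−0.33 ± 0.33). MRPS16 was at 7.32, 6.68 and 5.89 CPM with high and 10.9, 9.03 and 6.31 CPM with low yield, so that the classes overlapped. MRPL51 stood out by a single cow, Gir low 3, at 44.3 CPM, where the other Gir cows lay between 28.7 and 33.7 CPM.

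In Shweta Kapila the family leaned to the higher side with high yield, without a called gene. The median log2 fold change was 0.24, with 51 genes above and 19 below 0, where the median of all tested genes was −0.02 and 48.3% of them lay above 0. None of the 70 genes was called by edgeR's quasi-likelihood test, nor any other tested gene (0.0%; lowest adjusted p in the family 0.655). MRPL33 alone had an unadjusted p under 0.05, that is 1 of 70 genes, against 6.98% of all tested genes (4.05% on the higher and 2.93% on the lower side). That count rested on single cows. Without low 3 it was 23 of 70 (31.7% of all tested genes) and without high 3 it was 13 (18.8%). It was 2 without high 1 (3.65%) and 0 without high 2 (3.95%) or low 2 (3.76%). With the log2 total count as a covariate it was 8 (12.9%), and with the percentage on unnamed identifiers 3 (7.57%).

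The lean rested on individual cows. Without Shweta Kapila high 1 the family's median was 0.01, and without high 3 or low 3 it was 0.39 or 0.42. Without low 1 or low 2 it was 0.14 or 0.15. With the percentage of reads on unnamed identifiers in the model it was −0.09. Summed T cell markers did not overlap between the classes, at 4040.2 to 5541 CPM with high and 2409.8 to 3576 CPM with low yield. Erythroid markers, 7 of 11 in the table, did not overlap either, at 145 to 192 and 76.7 to 114 CPM. NK and cytotoxic markers, 6 of 10 in the table, overlapped at 985 to 1568 and 338 to 1078 CPM. B cell, monocyte, neutrophil and platelet markers overlapped too. The part of cell composition was not tested.

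MRPL33 (identifier 109566268), a small protein of the large subunit with a counterpart in bacterial L33, was the 1 gene of the family whose yield classes did not overlap in either breed. It stood at 3.08, 2.88 and 1.5 CPM with high and 1.02, 1.42 and 1.34 CPM with low yield in Gir cows. In Shweta Kapila it stood at 2.41, 5.28 and 1.76 CPM with high and 1.65, 1.01 and 1.48 CPM with low yield. The margin was narrow, 1.5 and 1.42 CPM for the nearest Gir cows and 1.76 and 1.65 CPM for the nearest Shweta Kapila cows, and rested on expected counts of 29.0 against 27.4 and of 46.7 against 36.9.

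Averaged over both breeds, the log2 fold change of MRPL33 for yield was 1.08 ± 0.33 (SE, adjusted p = 0.874). A separation in both breeds was found for 0.396% of all tested genes (0.169% on the higher side). The Shweta Kapila difference was 1.18 ± 0.47, and 0.59 without high 2. Across the 12 libraries its expected counts ran from 14.5 to 99.1, so counting error adds to the spread between cows.

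Of the other genes of lowest p in Shweta Kapila, MRPS18A was at 41.7, 28.9 and 20.4 CPM with high and 11.7, 15.8 and 28.2 CPM with low yield (0.71 ± 0.35 SE). MRPL49 was at 63.7, 63.0 and 42.1 CPM against 37.3, 40.1 and 47.7 CPM (0.43 ± 0.22). In both genes high 3 lay below low 3, so the classes overlapped. On the lower side stood MRPS35 (−0.47 ± 0.36), MRPS31 (−0.31 ± 0.24) and MRPS23 (−0.23 ± 0.24), all of the small subunit. MRPS23 was at 55.6, 33.1 and 34.0 CPM with high and 51.1, 51.4 and 41.7 CPM with low yield, again with overlap.

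Classes without overlap in Shweta Kapila were found for 3 of the 70 genes (7.21% of all tested genes), MRPL33 and MRPL47 on the higher (3.51%) and MRPL44 on the lower side (3.7%). MRPL47, the counterpart of bacterial L29, stood at 15.6, 20.4 and 16.5 CPM with high and 10.9, 14.4 and 14.7 CPM with low yield (0.39 ± 0.39 SE). For MRPL44, whose levels are given above, the log2 fold change was only −0.09 ± 0.21. Its SE too rests on the spread of all groups, where the SD of log2 CPM was 0.06 over the Shweta Kapila and 0.18 over the Gir cows.

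A second method gave another count. Limma-voom with sample weights called 20 of the 70 genes in Shweta Kapila, all higher with high yield, beside 25.3% of all tested genes in either direction. The share of all tested genes called on the higher side alone is not given here. Its weights in Shweta Kapila were 0.364, 1.375 and 0.347 for high 1 to 3 and 0.575, 6.62 and 0.184 for low 1 to 3. The cows that crossed the classes, high 3 and low 3, had the lowest weights. High 1, without which the lean was lost, had a weight close to that of high 3. The part of the weights in the calls was not tested. Among the genes it called were MRPL33 (adjusted p = 0.00986), MRPS18A (0.0147) and MRPL49 (0.0279). DESeq2 called none of the 70 and 0.396% of all tested genes.

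Over both breeds together the median of the family was 0.09 (53 genes above and 17 below 0), where that of all tested genes was −0.01. No gene was called (0 of 70 and 0.0% of all tested genes), and MRPL33 was again the 1 gene with an unadjusted p under 0.05, against 4.13% of all tested genes (2.28% on the higher and 1.85% on the lower side). Without Shweta Kapila low 3 the count was 14 of 70 (20.7% of all tested genes), and without high 3 it was 3 (9.89%). With the log2 total count as a covariate it was 7 (10.2%), and with the percentage on unnamed identifiers 2 (6.17%). The share above 0 was 48.5% over all tested genes. DESeq2 called none of the 70 (0.0259% of all tested genes), and limma-voom called MRPL10, MRPL12, MRPL33 and MRPL54 (8.15% of all tested genes). Beside MRPL33 MRPS18A (0.43 ± 0.24 SE) and MRPL45 (0.28 ± 0.16) stood on the higher side. MRPL51 (−0.16 ± 0.15), MRPL19 (−0.20 ± 0.20) and MRPS23 (−0.15 ± 0.17) stood on the lower side.

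The difference between breeds in the response to yield was tested directly as Gir minus Shweta Kapila. No gene of the family passed (0 of 70 and 0.0% of all tested genes, lowest adjusted p in the family 0.955), and none had an unadjusted p under 0.05 (3.81% of all tested genes, 1.46% above and 2.35% below 0). Without Shweta Kapila low 3 that count was 18 of 70 (19.1% of all tested genes). Without high 3 it was 4 (9.7%), and without Gir low 3 it was 1 (4.62%). With the log2 total count as a covariate it was 1 (5.8%), and with the percentage on unnamed identifiers 2 (5.95%). DESeq2 called none of the 70 (0.0584% of all tested genes), and limma-voom called MRPL12, MRPL54, MRPS16 and MRPS25 (8.48%). The family's median was −0.24, with 21 genes above (50.9% of all tested genes) and 49 below 0, and −0.01 without Shweta Kapila high 1. The lowest p on the side below 0 belonged to MRPS16 (−0.98 ± 0.48 SE), MRPL48 (−0.94 ± 0.56) and MRPL49 (−0.56 ± 0.31). MRPL48, a large subunit addition, was at 8.07, 9.73 and 6.45 CPM with high and 11.8, 7.03 and 12.9 CPM with low yield among Gir cows. Shweta Kapila cows had 14.4, 11.8 and 8.10 CPM with high and 4.98, 5.80 and 12.7 CPM with low yield. On the other side the lowest p belonged to MRPS35 (0.76 ± 0.51), MRPS15 (0.71 ± 0.63) and MRPL3 (0.41 ± 0.35), the last a counterpart of bacterial L3. The median SE of this difference was 0.48, so differences of that size between the breeds were not detectable here. Larger ones, such as that of MRPS16, were not called either.

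Between Gir and Shweta Kapila over both yield classes, the family's median log2 fold change (Gir over Shweta Kapila) was −0.11, with 26 genes above and 44 below 0. The median of all tested genes was −0.04, with 45.1% above 0. No gene was called by edgeR (0 of 70 and 0.0% of all tested genes). An unadjusted p under 0.05 was found for 3 of 70, all lower in Gir, against 9.57% of all tested genes in either direction, 3.78% on the higher and 5.79% on the lower side. Without Shweta Kapila low 3 the count was 11 of 70 (26.5% of all tested genes), without high 1 it was 8 (13.5%), and without Gir low 2 it was 1 (8.2%). With the log2 total count as a covariate it was 14 of 70 (13.5% of all tested genes), and the family's median was −0.17 with 56 genes below 0. With the percentage on unnamed identifiers as a covariate the count was 10 (15.2%). DESeq2 called none of the 70 and 1.26% of all tested genes. The 3 genes with an unadjusted p under 0.05 by edgeR on all libraries without a covariate were MRPL19, MRPL1 and MRPL47, all counterparts of bacterial large subunit proteins.

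MRPL19 (identifier 109566108) separated the breeds without overlap, at 10.0, 9.62, 6.35, 9.57, 8.5 and 10.5 CPM in Gir (high 1 to 3, then low 1 to 3) and 11.5, 14, 11.7, 19.2, 14.4 and 10.8 CPM in Shweta Kapila. The highest Gir cow and the lowest Shweta Kapila cow, low 3 of either breed, lay close together at 10.5 and 10.8 CPM. Its log2 fold change was −0.58 ± 0.20 (SE, adjusted p = 0.399). It was the 1 gene of the family that separated the breeds, against 0.603% of all tested genes (0.337% lower and 0.266% higher in Gir). This gene did not follow the family's profile, and its highest value lay in Shweta Kapila low 1, where the family's median was low.

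MRPL1 (identifier 109560614), whose bacterial counterpart forms the L1 stalk, was at 6.04, 6.68 and 4.65 CPM with high and 5.57, 5.09 and 9.98 CPM with low yield in Gir cows. Shweta Kapila cows had 8.93, 11.8 and 9.49 CPM with high and 11.1, 8.60 and 7.71 CPM with low yield (−0.60 ± 0.23 SE, adjusted p = 0.431). Only Gir low 3 lay within the Shweta Kapila range. MRPL47 was at 14.1, 10.5 and 3.77 CPM with high and 11.0, 7.61 and 11.4 CPM with low yield in Gir cows, and its breed difference was −0.65 ± 0.28 (adjusted p = 0.487). Gir high 3 was its lowest library. Shweta Kapila cows ran from 10.9 to 20.4 CPM for this gene, and Gir high 1, low 1 and low 3 lay within that range.

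On the side higher in Gir stood MRPS15 (0.45 ± 0.32 SE), MRPL45 (0.29 ± 0.16) and MRPS9 (0.21 ± 0.15). MRPS15, the counterpart of bacterial S15, had a Spearman correlation of −0.21 with the family's median profile. It was at 62.9, 149.5 and 114 CPM with high and 69.7, 55.1 and 143 CPM with low yield in Gir cows, and at 96.8, 50.8 and 39.1 CPM with high and 104, 91.9 and 55.8 CPM with low yield in Shweta Kapila cows. The groups overlapped throughout. MRPS9 ran from 32.0 to 40.7 CPM in Gir and from 26.0 to 34.6 CPM in Shweta Kapila.

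Limma-voom with sample weights called 10 of the 70 genes between breeds (16.6% of all tested genes in either direction), 3 lower and 7 higher in Gir. The lower ones were MRPL19, MRPL1 and MRPL47 (adjusted p = 0.0202, 0.025 and 0.0309). The higher ones were MRPL45 (adjusted p = 0.049), MRPL4, MRPL12, MRPL16, MRPL54, MRPS12 and MRPS25. By this method the family's median was 0.03, with 40 genes above and 30 below 0, against −0.11 by edgeR. By edgeR the family's median between breeds was −0.35 without the 3 libraries of over 22 M counts, on the same side of 0 as with all libraries. It was 0.01 without Shweta Kapila high 1 and 0.04 without Shweta Kapila low 3, so its sign depended on each of these cows.

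Differences between the subunits and between the origins were not tested. In Shweta Kapila the median log2 fold change for yield was 0.28 over the 48 large subunit genes (38 above 0) and 0.19 over the 22 small subunit genes (13 above 0). It was 0.23 over the 43 genes with a bacterial counterpart and 0.24 over the 27 mitochondrial additions. In Gir the same medians were 0.03 and −0.01 by subunit, and 0.02 and 0.01 by origin. Over both breeds they were 0.12 (40 above 0) and 0.01 (13 above 0) by subunit, and 0.09 and 0.10 by origin. The median SD over 12 libraries was 0.44 for genes with a bacterial counterpart and 0.33 for the additions. In the same order it was 0.52 and 0.36 over the Shweta Kapila cows, and 0.23 and 0.22 over the Gir cows.

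MRPS18A, MRPS18B and MRPS18C descend from the same bacterial protein, S18, and sit at separate places, MRPS18A in the large and the others in the small subunit. Their SDs over the 12 libraries were 0.47, 0.44 and 0.22. MRPS18B was at 36.6, 20.2 and 15.8 CPM with high and 15.4, 22.9 and 37.8 CPM with low yield in Shweta Kapila cows, with high 1 and low 3 at the top and high 3 and low 1 at the bottom. MRPS18C was at 9.87, 9.65 and 6.61 CPM and at 7.25, 7.45 and 8.62 CPM in the same cows. How reads were counted is not stated in the labels, so a loss of reads between copies cannot be told apart from a difference in level.

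MRPL46 and MRPS11 are next to each other in the RefSeq gene order, the 1 such pair among the 77 symbols. MRPL46 was at 24.7, 12.1, 12.0, 10.8, 13.8 and 15.9 CPM over the Shweta Kapila cows (high 1 to 3, then low 1 to 3), and MRPS11 at 20.1, 9.87, 8.63, 7.34, 8.10 and 13.4 CPM. The order of cows was nearly shared, with high 1 highest, low 3 second and low 1 lowest in both genes.

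Compared with the families most like it, the mitochondrial ribosome had the smallest of 3 medians for yield in Shweta Kapila. The median log2 fold change was 0.58 over 74 cytosolic ribosomal protein genes (73 above 0) and 0.43 over 79 nuclear oxidative phosphorylation genes (61 above 0), against 0.24 for the 70 genes. By library, the median deviation from a gene's own median in Shweta Kapila high 1, high 2 and high 3 was 0.59, 0.16 and −0.23 log2 units for this family, and 0.74, 0.49 and −0.28 for the cytosolic one. In low 1, low 2 and low 3 it was −0.21, −0.24 and 0.21 against −0.45, −0.47 and 0.26. The same cows were high and low in both families, and the difference between families was not tested.

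**Figure D4:**
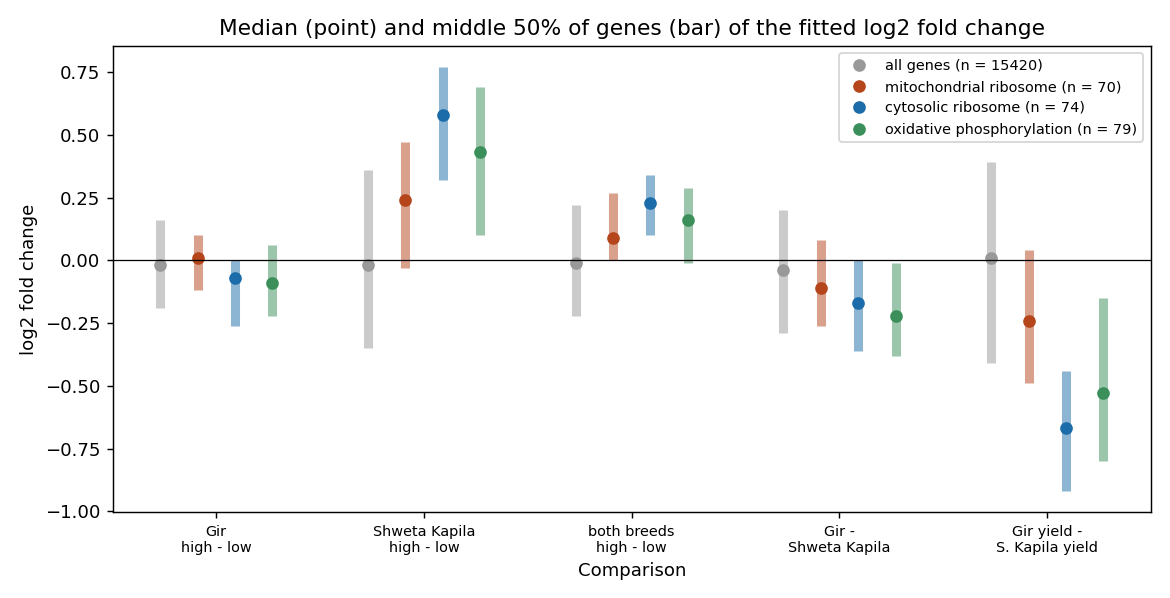
Median (point) and middle 50% of genes (bar) of the log2 fold change in the 5 comparisons, for all tested genes, the 70 mitochondrial ribosomal protein genes, 74 cytosolic ribosomal protein genes and 79 oxidative phosphorylation genes. The mitochondrial ribosomal medians lie between −0.24 and 0.24, on the same side of 0 as the medians of both other families in every comparison but Gir yield.

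Other parts of the mitochondrial translation pathway did not share 1 direction. Of the 6 ribosomal proteins and partners that carry other names, none was called for yield in either breed by edgeR. PTCD3, a pentatricopeptide repeat protein of the small subunit, averaged 32.4 ± 8.19 CPM with high and 55.1 ± 11.5 CPM with low yield in Shweta Kapila (± SD, n = 3; log2 fold change −0.77 ± 0.25 SE, adjusted p = 0.636). AURKAIP1, another small subunit protein, stood on the other side (0.68 ± 0.40). In Gir CHCHD1 (−0.35 ± 0.23) and OXA1L, the insertase that receives newly made proteins (0.20 ± 0.19), had the lowest p on each side.

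Of 13 mitochondrial translation factors, 5 were above and 8 below 0 in each breed (median −0.09 in Gir and −0.17 in Shweta Kapila), and none was called. The genes above 0 were not the same in each breed. GFM2, for example, stood at 0.06 in Gir and −0.31 in Shweta Kapila, and MTRFR at −0.26 and 0.23. The initiation factor MTIF3 was at 12.0 ± 2.09 against 18.1 ± 1.02 CPM with high and low yield in Shweta Kapila (± SD, n = 3; −0.60 ± 0.23 SE, adjusted p = 0.655). The elongation factor TSFM stood at 0.44 ± 0.38. In Gir the initiation factor MTIF2 (−0.43 ± 0.29) and the ribosome recycling factor MRRF (0.10 ± 0.23) had the lowest p on each side.

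Of 27 genes for ribosome assembly and rRNA modification, 25 were tested, with a median of 0.01 in Gir and 0.17 in Shweta Kapila (18 above 0) and no call. The rRNA methyltransferase NSUN4 (0.53 ± 0.24 SE) and the terminator family member MTERF3 (−0.50 ± 0.23) had the lowest p on each side in Shweta Kapila, and GTPBP10 (0.50 ± 0.45) and MTERF4, the partner of NSUN4 (−0.32 ± 0.23), in Gir. The 18 genes of mitochondrial transcription and RNA handling had a median of −0.26 in Shweta Kapila (14 below 0) and −0.02 in Gir, with no call. FASTKD3 was on the lower side in Shweta Kapila (−0.69 ± 0.34) and on the higher in Gir (0.34 ± 0.34). Beside it stood ELAC2, which trims mitochondrial tRNAs (0.27 ± 0.30, Shweta Kapila), and PNPT1, a ribonuclease (−0.30 ± 0.36, Gir).

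Of 17 mitochondrial tRNA synthetases 15 were tested, with medians of −0.02 in Gir and 0.08 in Shweta Kapila and no call. WARS2 (0.75 ± 0.39 SE) and YARS2 (−0.66 ± 0.46) had the lowest p on each side in Shweta Kapila, and LARS2 (0.18 ± 0.23) and FARS2 (−0.25 ± 0.30) in Gir. Of 10 regulators of mitochondrial gene expression 9 were tested and none was called. MYC, a transcription factor that drives ribosome production, averaged 108 ± 14.7 CPM with high and 188 ± 54.4 CPM with low yield in Shweta Kapila (± SD, n = 3; −0.80 ± 0.23 SE, adjusted p = 0.575). The nuclear receptor ESRRA stood at 1.12 ± 0.56. In Gir NRF1, an activator of nuclear genes for mitochondrial proteins, stood at −0.47 ± 0.25 and MAX, the partner of MYC, at 0.13 ± 0.20.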

How the data were processed

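The authors deposited an expected count for each gene and library, and 57.0% of the values lie off whole numbers by more than 1e-06, and no scaling is visible in the column totals. Per the submitters' processing notes, Trimmomatic and FastQC were used. For the aligner, counter, strand setting, build and annotation, names were not given in the sources used here, so reads of overlapping or near-identical genes may be split in unknown ways, and no coordinates or sequences are given. Per the labels' protocols, libraries were strand-specific and depleted of ribosomal RNA.

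Symbols came by identifier from the RefSeq table of assembly NIAB-ARS_B.indTharparkar_mat_pri_1.0 (22754 of 26229 identifiers, 86.8%). Rounded counts went into edgeR 4.0.16 (R 4.3.3). The steps were filterByExpr by group (minimum count 10, total 15; 15420 genes kept), TMM scaling and a robust quasi-likelihood fit of 4 group means over 12 libraries, which share 1 estimate of the spread. Tests were 2-sided, with Benjamini-Hochberg adjustment over all tested genes and a false discovery rate of 0.05. Log2 CPM used a prior count of 2. Alternatives were DESeq2 1.42.0, limma 3.58.1 (voom with sample weights), other scalings, no filter, a replicate block, 2 covariates, thinned counts and left-out libraries. The fit was also run on simulated counts in which all groups spread alike. That run cannot tell how the fit behaves under the wider spread of Shweta Kapila, and no result here rests on it. Tables and plots used Python 3.11.15, pandas 2.3.3, NumPy 2.4.6 and matplotlib 3.10.9. Libraries of a group differed by more than counting error (chi-square over its degrees of freedom, 32.6 to 366), so none was a copy.

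The genes of the family and all lists were chosen with earlier results of these data known. Named genes were the 3 of lowest p on each side of each comparison, the 5 of largest and smallest SD, those with a letter suffix, and in each pathway list the gene of lowest p on each side of the yield comparisons. Genes of highest and lowest level per coding length were to be named too, but no lengths were used here. MRPS17, MRPS10, MRPS11, MRPL46, MRPL58, MRPS25 and MRPL23 were named after their values were seen.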

Additional observations from a re-analysis of the deposited data

How the results depend on the processing

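No gene of the family was called for yield in Gir, for yield in Shweta Kapila, over both breeds, between breeds or for the difference between breeds under any of the 23 alternatives except limma-voom with sample weights, which called 20 in Shweta Kapila, 4 over both breeds, 10 between breeds and 4 for the difference. Over all tested genes, where edgeR called 0, DESeq2 called 1 in Gir, 61 in Shweta Kapila, 4 over both breeds, 195 between breeds and 9 for the difference, and limma-voom 1, 3898, 1256, 2558 and 1308. With the log2 total count as a covariate 1 gene was called in Shweta Kapila and 53 between breeds, with the percentage on unnamed identifiers 24 between breeds, and with no filter 3. Without the 3 libraries of over 22 M counts, which leaves 1 low-yielding Shweta Kapila cow that is assumed to vary like the other groups, 3, 1 and 31 were called in Shweta Kapila, over both breeds and between breeds. Leaving out each cow in turn gave 0 to 2 in Shweta Kapila, 0 to 447 between breeds (447 without Shweta Kapila low 3) and 0 to 1 for the difference.

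The family's median moved by more than the pooled SD within groups (0.25 log2 units; moves compared before rounding) with the percentage on unnamed identifiers in the model, to −0.09 in Shweta Kapila and 0.17 for the difference, and without the 3 large libraries, to −0.35 between breeds. The cause was not tested. Without those libraries MRPS23 stood at 0.08 in Shweta Kapila and 0.00 over both breeds, MRPL19 at 0.05 over both breeds and MRPS15 at −0.11 for the difference, each with its sign turned. Scaling to the library total and leaving the unnamed identifiers out of the library size, both added after the data were seen, gave family medians of −0.03 and −0.08 between breeds, where the median was −0.11, and stayed closer to it in the other comparisons.

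With the replicate number as a block 1 gene was called between breeds and none of the family, and the block changed no other call. The numbers do not pair the cows: same-numbered libraries correlated above 0.1 in 3 of 18 pairs, and 3 of 12 libraries matched their own number best.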
